A study of Mus musculus with 17 samples.

Results

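The cells described here are the 73 cycling cells of the lung CD44high library, out of 221 cells of that library and 804 cells in the 3 single-cell libraries that met the same filter of more than 500 detected genes and under 10% mitochondrial counts. They were chosen by a score, the counts per 10000 summed over 6 genes of dividing cells (Mki67, Top2a, Cenpf, Cdk1, Ccnb1 and Ube2c). The 73 cells of highest score are called cycling cells, the 73 of lowest score, in which none of the 6 genes had a count, are called low-score cells, and the 75 between them are called middle cells. The library, labelled replicate 1, was made from cells grown out of lung metastases of female FVB/NJ mice aged 10 to 12 weeks that carried the MMTV-PyMT transgene, in which the mouse mammary tumor virus promoter drives polyoma middle T antigen in the mammary epithelium. Cultures were enriched for cancer cells in 5% serum and sorted for high CD44 and high EpCAM. The other single-cell libraries were lymph node CD44high and lung CD44low lines of the same model, and 14 bulk libraries, 2 per group, covered CD44high and CD44low lines of lung, lymph node (LN) and bone marrow (BM) beside the mammary fat pad (MFP), which is labelled as primary tumor and which the methods also call a cell line. Each single-cell group is 1 library, so no difference between cells has a replicate check, and each interval below covers counting error only.

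A dividing cell copies its DNA in S phase with helicases, polymerases and nucleotide-making enzymes, most of them under control of E2F factors in late G1. In G2 and mitosis a later group of genes follows, controlled through cell cycle homology regions by the DREAM, B-MYB and FOXM1 complexes. Many promoters of this group also hold CCAAT boxes. The group supplies the kinases, spindle proteins and kinetochores that separate the chromosomes. The anaphase-promoting complex then destroys cyclins and securin to end mitosis. The 6 score genes belong mostly to the later group: Mki67 coats mitotic chromosomes, Top2a untangles DNA, Cenpf binds kinetochores, Cdk1 with cyclin B1 (Ccnb1) starts mitosis, and Ube2c is the ubiquitin-conjugating enzyme of the anaphase-promoting complex.

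The score of the cycling cells ran from 13.3 to 88.7 with a median of 26.5. The lowest score inside the group was 13.3, followed by 13.4, and the highest scores outside it were 12.8 and 12.6. The limit was set by a share of cells, so these values cannot show whether a separate population exists. Only 9 cells lay within 1 unit of the limit. A cycling cell held between 2 and 130 counts of the 6 genes, with a median of 24. All 6 genes were detected in 25 cycling cells, 5 genes in 15, 4 in 10, 3 in 8, 2 in 9 and a single gene in 6. Top2a had a count in 87.7% of cycling cells, Cdk1 in 78.1%, Mki67 in 74.0%, Ccnb1 in 72.6%, Cenpf in 58.9% and Ube2c in 57.5%. As 78 cells of the library scored 0, the low-score cells were taken from these in order of cell name, and 5 of them fell among the middle cells.

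Depth and mitochondrial share moved with the score. Cycling cells had a median total of 9538 counts (range 961 to 19956), middle cells 7476 and low-score cells 5120 (range 1131 to 13397). The median number of detected genes was 2755, 2389 and 1774 in the same order, and the median mitochondrial share 0.893%, 1.38% and 2.56%. Both ends held shallow cells, with 13 cycling and 9 low-score cells under 2000 counts. For this reason levels are given per 10000 counts of all the cells of a group summed, and a ratio is the level in cycling cells over that in low-score cells, with an exact 95% interval from the counts. Of 4039 genes with at least 50 counts over both groups, the 6 score genes left out, 396 (9.8%) were over 2-fold higher and 200 (4.95%) over 2-fold lower in cycling cells, and the median log2 ratio of all was 0.03. With counts per cell in place of counts per 10000, the median log2 ratio of all was 0.58 in place of 0.03, and 1021 genes were higher and 33 lower, so that 96.9% of the genes past 2-fold were higher in place of 66.4%. Every direction below is therefore relative to a cell's total counts. What depth contributed was not tested. Among cells above the median total alone, 284 genes were over 2-fold higher and 190 lower, and the median log2 ratio of the mitosis genes was 4.01, beside 3.59 over all cells. Among cells at or below the median total it was 0.88 over only 4 mitosis genes, with 68 genes higher and 58 lower. With each cell thinned to 1000 counts it was 0.74 over only 2, with 25 higher and 14 lower. Those 2 belonged to the list of the anaphase-promoting complex and its substrates, so 0.74 and 3.59 cover different sets of genes. The ratios of single genes depend on these choices too: of the named genes, 87 of 139 lay outside their 95% interval when thinned and 39 of 139 on the other side of 2-fold, and with cells of more than 250 genes it was 94 and 20 of 142.

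**Figure D1:**
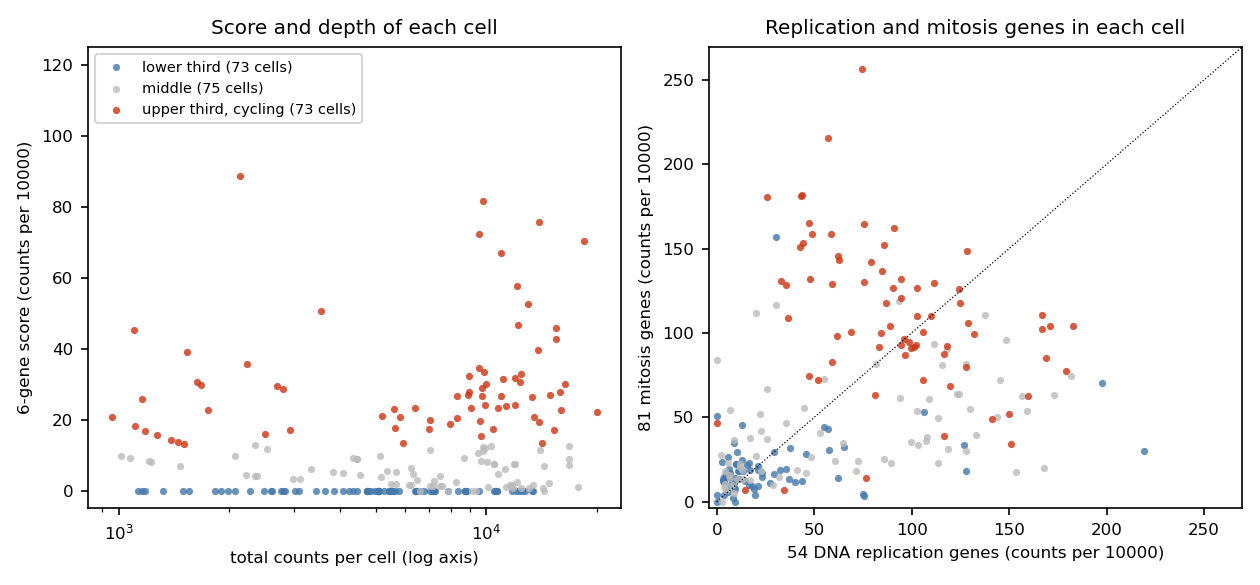
Left, the 6-gene score (counts per 10000) of each of the 221 cells (low-score blue, middle grey, cycling red) against its total counts on a log axis. Right, the summed level of 81 mitosis genes against that of 54 DNA replication genes in each cell (counts per 10000, dotted line at equality), where 30 of 73 cycling cells lay below the line.

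The motifs of both gene waves were counted in RefSeq promoter windows (GRCm38.p6) from 250 bases before to 50 bases after each start, on both strands, and a gene was counted where any of its windows held the motif. The motifs were TTTGAA and TTTAAA (the core of the cell cycle homology region), CCAAT, and TTCCCGC or TTGGCGC (E2F). On the opposite strand TTGGCGC can share 4 letters with CCAAT. Of 53 mitosis genes compared, 44 had a window, and of these 56.8% held TTTGAA, 75% CCAAT and 6.82% an E2F motif. Of 36 replication genes compared, 27 had a window, and the shares were 18.5%, 66.7% and 63.0%. Thus TTTGAA was the commoner of the 2 in the mitosis genes and the E2F motif in the replication genes. Over the 396 genes higher in cycling cells (306 with a window) the shares were 28.1%, 60.8% and 27.8%, over the 200 lower genes (151 with a window) 17.2%, 39.1% and 10.6%, and over all compared genes (3155 of 4035 symbols with a window) 14.2%, 42.8% and 16.4%. Among all 27025 genes of the table they were 20.2%, 41.1% and 7.79%. The median GC content was 59.6% for the mitosis genes, 59.3% for the replication genes, 62.3% for all compared genes and 52.8% for the whole table. A match of letters is no evidence of binding.

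The 250 bases before the start are shown for the 3 mitosis genes with the most counts in cycling cells that hold a cell cycle homology core there, followed by Ccnf and Rrm1, picked after their values were seen as one gene with 2 such cores and one replication gene with an E2F motif. Capitals mark the motifs on either strand. The windows are chr3:89418292-89418541 (minus strand, Cks1b), chr11:117848987-117849236 (plus strand, Birc5), chr7:131560120-131560369 (plus strand, Bub3), chr17:24251410-24251659 (minus strand, Ccnf) and chr7:102441445-102441694 (plus strand, Rrm1).
Cks1b: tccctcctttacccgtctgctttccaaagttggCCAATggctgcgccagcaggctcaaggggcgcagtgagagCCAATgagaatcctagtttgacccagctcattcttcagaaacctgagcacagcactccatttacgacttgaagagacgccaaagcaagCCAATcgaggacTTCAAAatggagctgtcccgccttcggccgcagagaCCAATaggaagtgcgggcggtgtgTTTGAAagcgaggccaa
Birc5: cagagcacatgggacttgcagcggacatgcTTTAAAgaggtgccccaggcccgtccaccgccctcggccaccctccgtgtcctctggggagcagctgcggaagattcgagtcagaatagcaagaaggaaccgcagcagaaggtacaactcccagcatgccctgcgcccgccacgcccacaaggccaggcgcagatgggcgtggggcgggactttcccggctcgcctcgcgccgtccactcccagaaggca
Bub3: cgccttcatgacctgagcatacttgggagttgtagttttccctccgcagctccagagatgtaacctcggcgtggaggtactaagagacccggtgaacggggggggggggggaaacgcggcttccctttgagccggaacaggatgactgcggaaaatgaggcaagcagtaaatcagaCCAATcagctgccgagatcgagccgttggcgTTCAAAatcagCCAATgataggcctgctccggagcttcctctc
Ccnf: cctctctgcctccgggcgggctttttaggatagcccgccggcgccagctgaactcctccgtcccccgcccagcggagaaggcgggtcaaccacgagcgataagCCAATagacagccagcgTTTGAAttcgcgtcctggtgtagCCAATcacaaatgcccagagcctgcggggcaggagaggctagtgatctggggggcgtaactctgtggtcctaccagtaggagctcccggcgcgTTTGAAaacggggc
Rrm1: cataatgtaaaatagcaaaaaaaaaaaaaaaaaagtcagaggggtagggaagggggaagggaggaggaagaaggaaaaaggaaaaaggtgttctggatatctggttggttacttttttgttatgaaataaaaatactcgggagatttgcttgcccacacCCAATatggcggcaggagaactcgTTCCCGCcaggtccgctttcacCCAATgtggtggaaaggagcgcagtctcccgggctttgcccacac
In Cks1b, TTTGAA lies 17 bases before the start with a CCAAT 41 bases before it, and a reversed copy (TTCAAA) lies at 77 bases. Ccnf holds TTTGAA 14 and 130 bases before its start and CCAAT at 107 and 147. In Bub3 the reversed core lies at 43 bases between CCAAT boxes at 32 and 74, in Birc5 TTTAAA lies 220 bases before the start, and in Rrm1 the E2F motif lies at 67 bases between CCAAT boxes at 45 and 91.

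The largest ratios belonged to mitosis genes. Of the 20 genes with the largest ratio, 12 were in the mitosis lists and 3 in the replication list, and the ratios ran from at least 30.7 to 158. Nusap1, which bundles spindle microtubules, had 232 counts in cycling cells (3.71 per 10000, 65.8% of cells) and 1 in low-score cells, a ratio of 158 (28.1 to 6274). The mitotic kinase Pbk had 163 counts against 1 (ratio 111, 19.7 to 4416). Pclaf, a partner of PCNA that is in no list, had 412 counts against 4 and was detected in 83.6% of cycling and 1.37% of low-score cells (ratio 70.2, 27.2 to 259). Tacc3, Ccnf, Plk1, Mastl, Cep55, Bub1, Aurka, Rad51ap1, Pola1, Esco2 and Pkmyt1 had 50 to 87 counts in cycling cells and a single count in low-score cells, so their ratios of 34.1 to 59.3 are loosely fixed, with lower bounds of 5.84 to 10.4. Better counted were Rrm2 (421 counts against 8, ratio 35.9, 18 to 83.6), Birc5 (250 against 5, 34.1, 14.4 to 106), Racgap1 (168 against 3, 38.2, 12.8 to 187), Foxm1 (149 against 3, 33.9, 11.4 to 166) and Nuf2 (150 against 2, 51.1, 13.9 to 426). Gm10184 had 135 counts in 10 cycling cells, 30 in middle cells and none in low-score cells (at least 30.7-fold against a floor of 3 counts over the group, exact lower limit 24.6), but 95.8% of its 31-base words also occur in Kpna2, an importin that was 7.04-fold higher (434 counts against 42), and reads of the pair cannot be told apart.

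**Figure D2:**
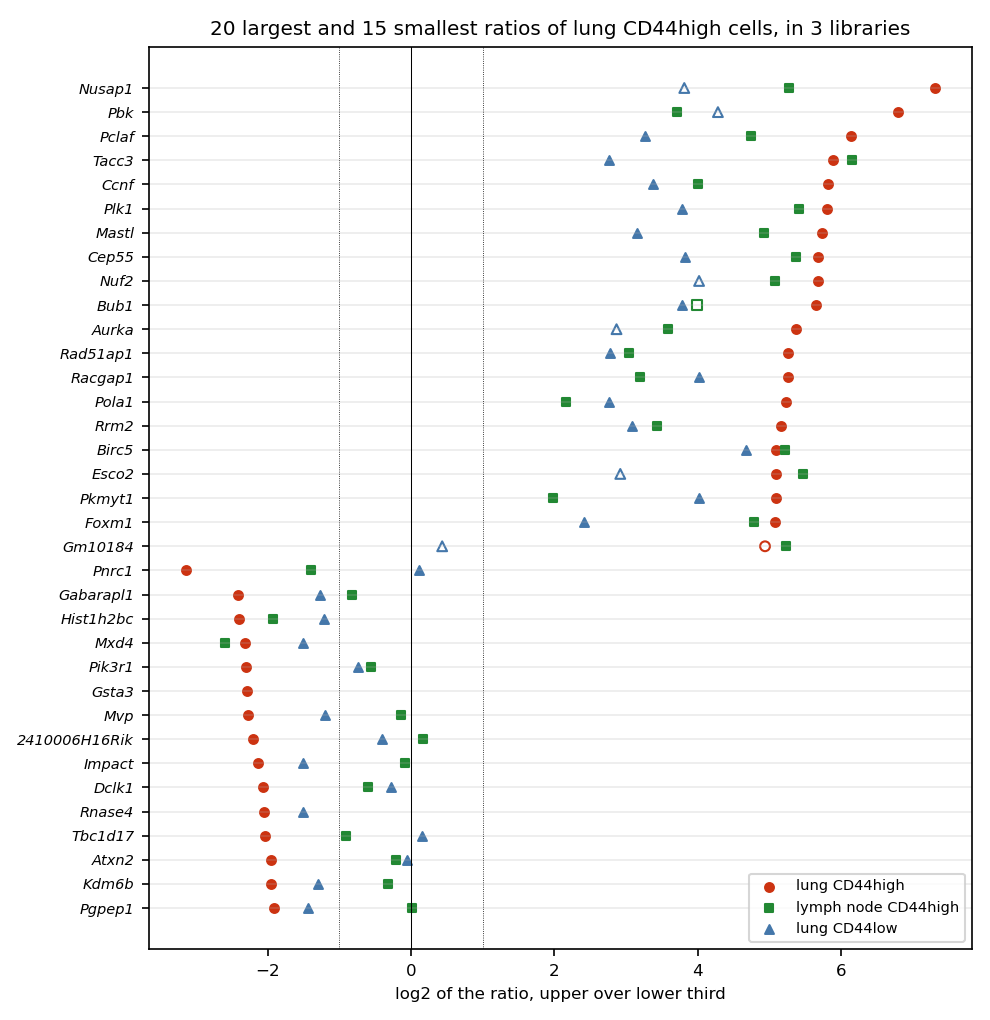
The log2 ratio of cycling over low-score cells for the 20 largest and 15 smallest ratios in lung CD44high cells (circles), with the same genes under the same rule in lymph node CD44high (squares) and lung CD44low cells (triangles); open symbols are bounds from a count of 0, dotted lines mark 2-fold. Lung CD44high ratios were chosen as extremes, so where another library lies closer to 0, this is no comparison.

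Among the mitosis genes that could be compared, kinases, spindle proteins and kinetochore proteins were nearly all over 2-fold higher, beside 9.8% of all compared genes. None of the 5 compared core subunits of the anaphase-promoting complex in the list passed 2-fold, which is near that share. Another subunit of the complex, Anapc15, in no list and named after its value was seen, was 2.33-fold higher (1.34 to 4.26). Over 81 genes of 4 lists, the summed level was 17.8 per 10000 in low-score, 42.4 in middle and 113 in cycling cells (ratio 6.36, 5.90 to 6.87), and 47 of 53 compared genes were over 2-fold higher and none lower, with a median log2 ratio of 3.59. The minimum of counts was set over both groups together, so some of these genes were compared only through their counts in cycling cells. Among them were Plk1 (82 counts against 1) and Bub1 (74 against 1). Shares of higher genes can be raised by this, here, in the other lists and in the other libraries. With no minimum of counts, 80 mitosis genes were compared, at a median log2 ratio of 3.25. The medians of the mitosis genes and of the other lists count genes at 0 in low-score cells at their bound of 3 counts.

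The list of mitotic kinases, cyclins and regulators stood at 30.1 per 10000 in cycling and 2.75 in low-score cells (ratio 11.0, 9.09 to 13.3), with 13 of 14 compared genes over 2-fold higher. Plk1, which drives spindle assembly and mitotic exit, had 82 counts in 38.4% of cycling cells. Aurora B (Aurkb), the kinase of the chromosomal passenger complex, was 24.8-fold higher (8.25 to 122) and cyclin B2 (Ccnb2) 22.3-fold (7.40 to 110). Cyclin A2 (Ccna2), which acts in S phase and G2, had a ratio of 12.1 (6.41 to 25.6). The small Cdk subunits Cks1b and Cks2 were 6.38-fold (4.40 to 9.56) and 9.04-fold higher (5.35 to 16.5). The exception was Wee1, the kinase that holds Cdk1 inactive, at 1.89-fold (1.19 to 3.08).

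All 18 compared genes of spindle and cytokinesis, of 28 listed, were over 2-fold higher, some of them compared only through their counts in cycling cells. The list stood at 37.2 per 10000 against 2.96 in low-score cells (ratio 12.6, 10.5 to 15.2). Anln, an anillin of the cleavage furrow, was the best counted, with 393 counts in 74.0% of cycling cells and 14 in low-score cells (19.1-fold, 11.3 to 35.3). Tpx2, which activates Aurora A on the spindle, was 26.8-fold higher (10.2 to 99.4). The motor Kif11, which pushes spindle poles apart, was 9.27-fold higher (3.78 to 29.5), and Kif20a and Kif23 of the central spindle 7.73-fold (4.55 to 14.1) and 7.30-fold (3.38 to 18.8). Hmmr had 63 counts in cycling cells and none in low-score cells, at least 14.3-fold higher against the same floor (exact lower limit 11.3). The smallest ratio was that of the microtubule polymerase Ckap5 at 2.18 (1.49 to 3.26).

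All 12 compared genes of centromere, kinetochore and checkpoint, of 20 listed, were over 2-fold higher, under the same limit (28.4 against 3.38 per 10000, ratio 8.41, 7.09 to 10.0). Spc25 of the Ndc80 complex had 128 counts against 0, at least 29.1-fold higher (exact lower limit 23.3), and its partner Nuf2 was among the largest ratios. The centromeric histone Cenpa was 11.2-fold higher (5.75 to 25), Incenp, the scaffold of the passenger complex, 8.66-fold (4.56 to 18.5), and the checkpoint protein Mad2l1 8.30-fold (4.50 to 17.0). Bub3, also a checkpoint protein, was well counted in both groups, 232 against 67, and only 2.36-fold higher (1.79 to 3.15).

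In the list of the anaphase-promoting complex and its substrates, 4 of 9 compared genes were over 2-fold higher. They were the substrates securin (Pttg1, 29.3-fold, 7.87 to 246) and Cdca3 (122 counts against 0, at least 27.7-fold, exact lower limit 22.2), the inhibitor Fbxo5 (7.79-fold, 3.61 to 20) and the activator Fzr1 (2.18-fold, 1.20 to 4.19). The listed core subunits were Cdc27 at 1.79 (1.10 to 3.0), Anapc5 at 1.68 (1.34 to 2.13), Anapc11 at 1.38 (1.13 to 1.71), Cdc16 at 1.01 (0.591 to 1.75) and Anapc13 at 1.40-fold lower (0.883 to 2.21). None of these 5 passed 2-fold, which is near the shares over all compared genes (9.8% higher and 4.95% lower).

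The DNA replication and S phase list separated cycling from low-score cells less widely, and it was already high in middle cells. It stood at 23.8 per 10000 in low-score, 66.2 in middle and 92.1 in cycling cells (ratio 3.86, 3.61 to 4.13), with 33 of 36 compared genes over 2-fold higher and a median log2 ratio of 1.99. The ribonucleotide reductase subunits differed, Rrm2 at 35.9-fold and Rrm1 at 5.04-fold (3.75 to 6.89). Thymidine kinase Tk1 was 22-fold higher (10.5 to 55.4) and thymidylate synthase Tyms 4.18-fold (2.85 to 6.32). The sliding clamp Pcna, the best counted with 830 counts against 163, was 3.47-fold higher (2.93 to 4.13) and was detected in 54.8% of low-score cells. The 6 subunits of the replicative helicase were close to each other, from 2.52-fold for Mcm3 (1.78 to 3.63) to 4.92-fold for Mcm2 (3.0 to 8.57). Cdc45, a component of the active helicase, was 8.18-fold higher (3.32 to 26.1) and the chromatin remodeler Hells 13.4-fold (4.37 to 66.9). Below 2-fold were Gins2 at 1.85 (1.34 to 2.59), which shares 66.2% of its 31-base words with Gse1, the helicase loader Cdt1 at a log2 ratio of 0.98, and Ubr7 at 1.16 (0.707 to 1.94).

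Chromatin proteins and tubulins held the most counts of the cell cycle lists in cycling and in low-score cells. For condensin and chromatin, 18 of 26 compared genes were over 2-fold higher (159 against 66.8 per 10000, ratio 2.38, 2.29 to 2.49). The histone variant H2afz reached 19.8 per 10000 against 4.88 (4.05-fold, 3.49 to 4.71) and the DNA-bending protein Hmgb2 7.01 against 0.61 (11.5-fold, 7.73 to 17.8), while its relative Hmgb1 was 1.96-fold higher (1.67 to 2.30). The condensin subunits Smc2 and Ncapg were 17.3-fold (5.69 to 85.6) and at least 12.7-fold higher (exact lower limit 10.0), and the polycomb methyltransferase Ezh2 6.54-fold (3.41 to 14.1). Cbx1, a heterochromatin protein, was 1.29-fold lower (0.755 to 2.19).

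For tubulins and stathmin, 7 of 11 compared genes were over 2-fold higher (139 against 41.8 per 10000, ratio 3.33, 3.16 to 3.51). The level of Tuba1b was 47.5 per 10000 against 10.0 (4.72-fold, 4.27 to 5.24), that of Tubb5 40.6 against 12.7 (3.19-fold, 2.90 to 3.50) and that of Tubb6 5.54 against 0.564 (9.83-fold, 6.50 to 15.6). Stathmin (Stmn1), which depolymerizes microtubules, was 6.85-fold higher (5.03 to 9.52). Tuba1a was 1.59-fold higher (1.41 to 1.78), but it shares 78.6% of its 31-base words with other genes and Tuba1b 78.7%, so that the split between alpha-tubulin genes is uncertain.

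**Figure D3:**
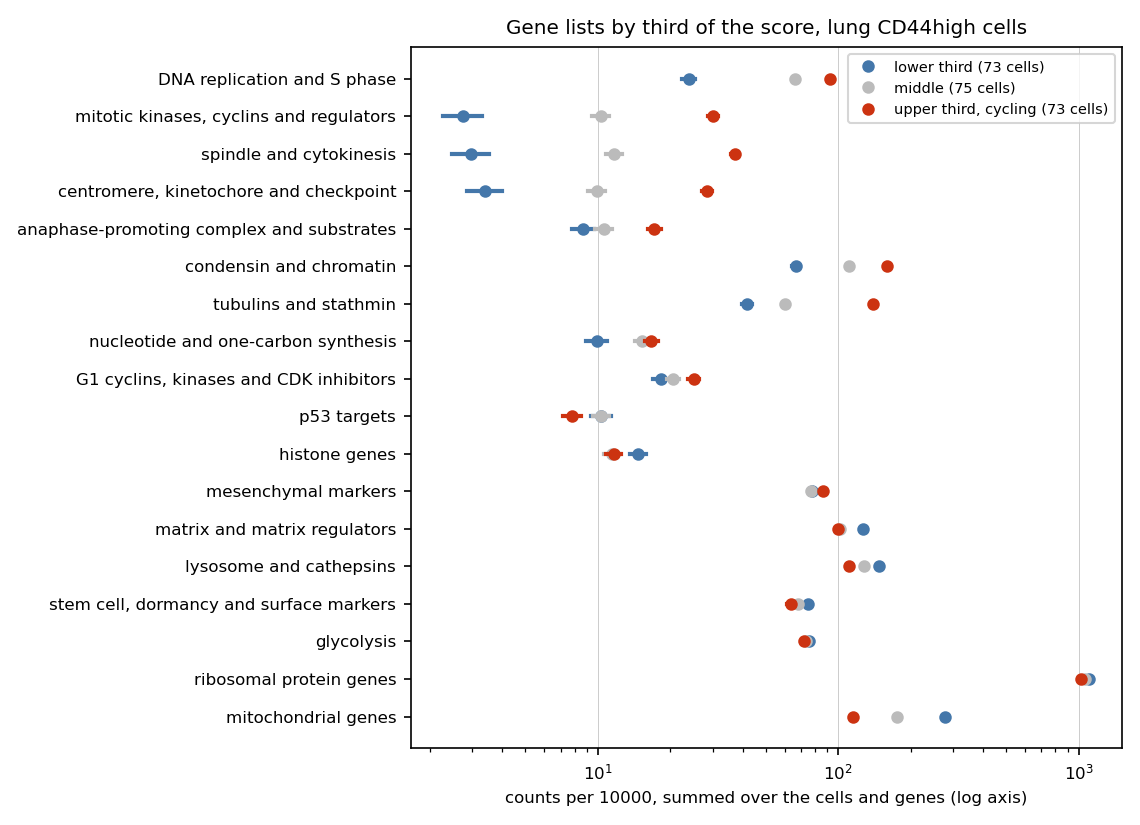
Summed level of each gene list (counts per 10000, log axis) in the 73 low-score (blue), 75 middle (grey) and 73 cycling cells (red), with exact Poisson 95% intervals as bars. The kinase, spindle and kinetochore lists spread widest of those drawn, the replication list had most of its difference between low-score and middle cells, and the mitochondrial genes ran from 278 in low-score to 115 in cycling cells.

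Genes of G1 were mixed, with 4 of 10 compared genes over 2-fold higher. These were cyclin E1 (Ccne1, 9.0-fold, 3.67 to 28.6), the retinoblastoma relative Rbl1 (5.20-fold, 2.48 to 12.6) and the INK4 inhibitors Cdkn2d (7.41-fold, 3.60 to 17.7) and Cdkn2c (3.41-fold, 2.01 to 6.12). Cyclin D1 (Ccnd1, 1.19-fold, 1.03 to 1.37) and its kinase Cdk4 (1.23-fold, 1.04 to 1.47) had nearly the same level in both groups. Cdk6 was 1.47-fold lower (0.953 to 2.26). Of 9 compared genes of nucleotide and serine synthesis, 5 were over 2-fold higher, among them Psat1 of serine synthesis (10.5-fold, 4.93 to 26.8). None of 6 compared p53 target genes passed 2-fold, which is near the shares over all compared genes (9.8% higher and 4.95% lower). The counts of G1 and synthesis genes are to be read beside the same shares. Mdm2 was at 0.960 against 0.963 per 10000, and the membrane protein Perp 1.52-fold lower (1.24 to 1.85).

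Histone genes split into opposite directions. Of 67 histone genes listed, 6 had enough counts. Hist1h2ao was 6.24-fold (4.15 to 9.75) and Hist1h2ap 17.3-fold higher (5.69 to 85.6), and the pair shares over 93% of its words. Hist1h2bc was 5.27-fold lower (3.82 to 7.39), the linker histone Hist1h1c 2.47-fold (1.91 to 3.20), Hist2h2aa2 3.02-fold (1.67 to 5.63) and Hist3h2a 2.12-fold lower (1.29 to 3.54). All of the words of Hist2h2aa2 also occur in other genes. Replication-dependent histone messages end without a poly(A) tail as a rule.

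Of the 15 genes with the smallest ratios, the histone gene Hist1h2bc, described above, was the only one in a list. The nuclear receptor coactivator Pnrc1 had 9 counts in cycling and 54 in low-score cells (8.80-fold lower, 4.31 to 20.3), and was detected in 8.22% and 31.5% of cells. Mxd4, a partner of Max that opposes Myc, was 4.99-fold lower (2.76 to 9.55), the autophagy protein Gabarapl1 5.33-fold (2.69 to 11.5), the phosphoinositide 3-kinase subunit Pik3r1 4.92-fold (2.82 to 9.02) and the histone demethylase Kdm6b 3.88-fold (2.18 to 7.24). The vault protein Mvp was 4.86-fold lower (2.74 to 9.11), the glutathione transferase Gsta3 4.89-fold (2.51 to 10.2) and the secreted ribonuclease Rnase4 4.15-fold (2.96 to 5.92). The others, 2410006H16Rik, Impact, Dclk1, Tbc1d17, Atxn2 and Pgpep1, were 3.75- to 4.60-fold lower. Each of the 15 had 9 to 49 counts in cycling cells.

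All 10 compared mitochondrial genes were over 2-fold lower, from 278 per 10000 in low-score and 175 in middle to 115 in cycling cells (2.42-fold, 2.35 to 2.49). mt-Co1 of the respiratory chain was 2.64-fold (2.43 to 2.88) and mt-Nd4 2.69-fold lower (2.44 to 2.96). Their median stayed negative with counts per cell (log2 ratio of -0.72, beside -1.27 per 10000), and among cells at or below the median total it was -0.35. The mitochondrial share was also used by the filter on cells. Ribosomal protein genes, at 1018 against 1101 per 10000, held 1 lower of 83 compared genes.

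Few genes of matrix, lysosome, glycolysis and surface lists passed 2-fold, at shares to be read beside the 9.8% higher and 4.95% lower over all compared genes. Of 18 compared matrix genes 1 was over 2-fold lower, Mgp at 2.23-fold (1.63 to 3.07), and fibronectin (Fn1), the most abundant, was 1.52-fold lower (1.43 to 1.61). Of 12 compared lysosome genes none passed 2-fold, and cathepsin D (Ctsd) was 1.38-fold lower (1.30 to 1.46). The medians of the matrix, lysosome, p53, glycolysis, smooth muscle and ribosomal lists were negative per 10000 and positive per cell, so they have no direction that holds on both scales. Counts per cell raise every log2 ratio by the same amount. Such a turn therefore follows from the scale for any small negative median and is no result about these lists. Among mesenchymal markers Vim was 1.34-fold higher (1.25 to 1.43) and 1 of 7, the transcription factor Zeb2, passed 2-fold (40 counts against 10, 2.73-fold, 1.34 to 6.12). Cd44 itself was 1.46-fold higher (1.20 to 1.78) and found in 68.5% of cycling and 61.6% of low-score cells. Of 15 stem cell and surface markers the transcription factor Sox9 alone passed 2-fold (2.98-fold lower, 2.20 to 4.06). Of 10 glycolysis genes it was Aldoa (2.18-fold lower, 1.94 to 2.44), and of 9 stress genes Dusp1 (2.86-fold lower, 1.63 to 5.18) and Dnajb1 (3.41-fold higher, 1.82 to 6.96). None of 3 smooth muscle genes did.

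Markers of epithelial, macrophage and endothelial cells were low in both groups. Of 11 epithelial markers 4 had a count, and the summed level was 4.58 per 10000 in cycling and 4.02 in low-score cells, nearly all Krt8 and Krt18. Epcam, the antigen of the sort, had 2 counts in the 221 cells, both in middle cells, and Cdh1 none. Of 8 macrophage markers 4 had a count (0.736 against 0.775 per 10000), while Ptprc, Adgre1, Tyrobp and Fcer1g had none. The 5 endothelial markers were at 0. Vim, by contrast, was detected in 98.6% of cycling cells. Epcam RNA was thus nearly absent from cells labelled EpCAMhigh, but the sort was made on surface protein and before sequencing.

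Within the cycling cells, replication and mitosis genes varied widely. The summed mitosis level ran from 6.88 to 257 per 10000 among them with a median of 104, and the replication level from 0 to 183 with a median of 90.5. Across the 73 cells the correlation of the 2 levels was -0.25 (Pearson) and -0.35 (Spearman), whereas across the 75 middle cells it was 0.43 and 0.53. These points are cells of 1 library that share its preparation, both levels are parts of the same total, and each group was cut by a score of mostly mitosis genes, so the correlations are given as a description only. Replication genes exceeded mitosis genes in 30 of 73 cycling and in 45 of 75 middle cells.

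The same rule was applied to the other libraries to set their values beside these. It took 116 of 348 lymph node CD44high cells, with scores of 7.49 or more, and 78 of 235 lung CD44low cells, with scores of 1.48 or more, so the groups do not reach the same level. Counts of the 6 genes over all kept cells were 14.2 per 10000 in lung CD44high (13.6 to 14.8), 6.50 in lymph node CD44high (6.25 to 6.75) and 3.62 in lung CD44low (3.37 to 3.88). The share of cells with any count of the 6 genes was 64.7%, 61.2% and 40.9% at median totals of 7023, 13608 and 9698. With each cell thinned to 1000 counts, leaving out 1, 42 and 2 shallower cells, it was 44.5% (exact binomial 37.9 to 51.4), 34.3% (29.0 to 39.9) and 20.6% (15.6 to 26.4). These are shares of 3 libraries, not of conditions.

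Mitosis genes were over 2-fold higher in 55 of 62 compared genes in lymph node cells (background 6.15%) and 23 of 32 in lung CD44low cells (background 8.83%), with median log2 ratios of 3.68 and 3.01. For replication genes it was 38 of 42 and 29 of 30, with medians of 2.03 and 2.73. Of the 372 higher genes of the lung CD44high cells that were also compared in lymph node cells, 178 (47.8%) were past 2-fold there, which is 80.2% of the 222 genes past 2-fold in lymph node cells among the 3806 compared in both libraries, beside 5.83% of those 3806. The lymph node cells had 402 genes over 2-fold higher in all. In lung CD44low cells 116 of 299 (38.8%, and 34.2% of the 339 lung CD44low genes past 2-fold among the 3529 compared in both) were past 2-fold, beside 9.61% of those 3529. Over the same genes compared in both, 13 of 159 lower genes (8.18%, and 44.8% of the 29 lymph node genes, background 0.762%) were also lower in lymph node and 30 of 143 (21%, and 22.1% of the 136 lung CD44low genes, background 3.85%) in lung CD44low cells. Over all compared genes of those libraries 1.41% and 6.56% were over 2-fold lower. Of the mitochondrial genes, all 10 were over 2-fold lower in lung CD44high cells, beside a background of 4.95%. None of 10 passed 2-fold in lymph node cells (median log2 ratio -0.27), near the background of 6.15% higher and 1.41% lower. In lung CD44low cells 1 of 9 was over 2-fold higher (median 0.81), near the background of 8.83%. Each group is 1 library, and differences between libraries were not tested.

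The bulk libraries were not used by the score and carry replicates, which were clonal isolates from different mice. The methods speak of replicate clonal isolates for the single-cell assay too, of which 1 library per group was analysed here, and the isolate behind it is not given in the sources used here. In bulk, the score genes were at or near the bottom of all groups in the lung lines, and the 2 lung CD44high replicates stood far apart. Top2a was at 0.68 and 8.37 TPM, the transcript count scaled for length and library size, in lung CD44high replicates 1 and 2, at 0.69 and 2.21 in lung CD44low, 82.18 and 61.88 in MFP and 99.21 and 99.01 in LN CD44high. Cdk1 was at 1.64 and 25.26 in lung CD44high, 31.92 and 27.89 in lung CD44low and 355.61 and 263.64 in MFP. Mki67 was at 0.05 and 1.24 in lung CD44high, 0.13 and 0.28 in lung CD44low and 8.01 and 6.69 in MFP. Lung CD44high and MFP did not overlap in any of these genes, and in Top2a and Mki67 the lung CD44low replicates lay between the lung CD44high replicates. In a bulk sample, fewer dividing cells and less RNA per dividing cell cannot be told apart.

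**Figure D4:**
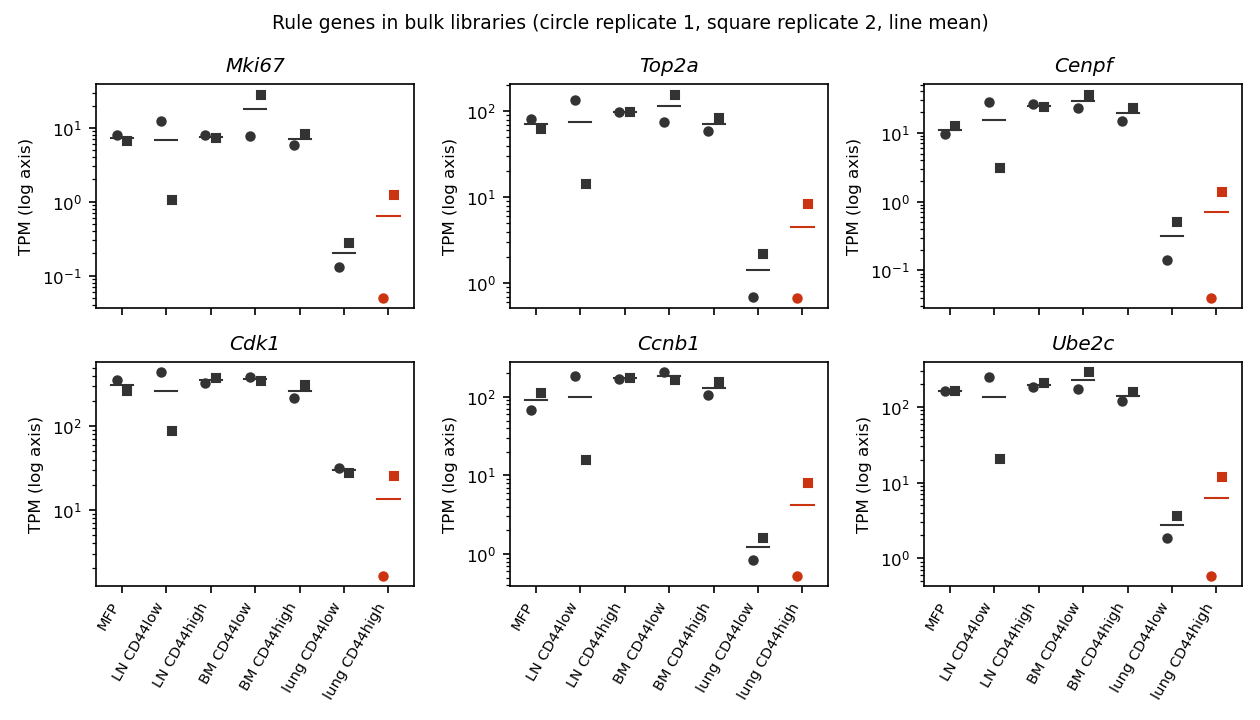
TPM of the 6 score genes (log axis) in the 14 bulk libraries, with replicate 1 as a circle, replicate 2 as a square and the mean as a line; lung CD44high is in red. Replicate 1 of lung CD44high was the lowest library for each gene, and both lung lines lay below MFP.

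Against MFP, all 6 score genes were lower in lung CD44high by limma on log2(TPM + 1) with Benjamini-Hochberg adjustment over 15348 genes, at a limit of 4-fold and adjusted p under 0.05. The background was 8.03% of genes lower and 5.42% higher. Cdk1 fell by 5.21 on the log2 scale (SE 0.94, adjusted p 0.00192), Ube2c by 5.18 (SE 1.10, 0.00463), Ccnb1 by 4.58 (SE 1.02, 0.00595), Top2a by 4.19 (SE 0.99, 0.00811), Cenpf by 2.94 (SE 0.76, 0.0127) and Mki67 by 2.44 (SE 0.81, 0.0391). Of 81 mitosis genes 64 fell and none rose by limma, and of 54 replication genes 43 fell and none rose. At an unadjusted limma p under 0.05, 2 mitosis genes and 0 replication genes were higher. The log2 differences of the score genes moved widely over the fits that left out 1 library. They ranged from -6.86 to -3.55 for Cdk1, -6.69 to -3.67 for Ube2c and -5.86 to -3.30 for Ccnb1. For Top2a the range was -5.43 to -2.95, for Cenpf -3.53 to -2.34 and for Mki67 -2.99 to -1.89. Without lung CD44high replicate 1, the limma adjusted p exceeded 0.05 for Mki67 (0.216), Cenpf (0.101), Top2a (0.0769) and Ccnb1 (0.0589), and was under it for Cdk1 and Ube2c. With the replicate number as a block, Mki67 did not pass. With only the 2 compared groups in the fit, the limma adjusted p exceeded 0.05 for Cdk1 (0.0705), Top2a (0.0633), Ube2c (0.0596) and Ccnb1 (0.0590). It also exceeded 0.05 for Top2a without MFP replicate 1 (0.0521) and for Cenpf without MFP replicate 2 (0.0695), and for Mki67 without MFP replicate 1 (0.149) or 2 (0.110) and with no filter on low TPM (0.0836).

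Against lung CD44low, none of the 6 score genes passed by limma, and 0 did at an unadjusted p under 0.05. The log2 differences lay between -1.89 for Cdk1 (SE 0.94, limma adjusted p 0.164) and 0.77 for Top2a (SE 0.99, limma adjusted p 0.628). They depended on single libraries: without lung CD44high replicate 2, Cdk1 was at -3.55 and the other score genes were negative too. Of the mitosis genes 3 fell (Psrc1, Ube2s and Fzr1) and of the replication genes 1 (Usp1). None rose by limma, with 2 mitosis and 4 replication genes higher at an unadjusted p under 0.05, and the background was 8.8% lower and 2.49% higher. The comparisons share the lung CD44high libraries. In bulk, lung CD44high also lay below LN CD44high in each of the 6 genes, with Ube2c at 0.59 and 11.89 TPM against 180.27 and 209.62, and Ccnb1 at 0.53 and 7.97 against 167.37 and 176.26, a contrast that was not tested. In single cells the order of these groups was the opposite, as the lung CD44high library held more counts of the 6 genes per 10000 than the lymph node CD44high library. That order covers only the kept cells of 1 library each, which held 51.8% and 71.1% of the counts. Its measure is not TPM, so the orders are not like for like. Epcam was at 0.23 and 0.86 TPM in bulk lung CD44high and at 836.53 and 725.37 in MFP.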

How the data were processed

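The single-cell tables hold whole-number counts per gene and barcode deposited by the authors, from SureCell 3' libraries run on the ddSeq platform. Barcodes were assigned with Ddseeker, and transcripts quantified with kallisto on mm10 and GENCODE v21. Whether reads of one molecule were collapsed is not given in the sources used here. The lung CD44high table held 3623 barcodes and 3195105 counts, of which the 221 kept cells took 51.8%. The study's limit of more than 250 genes would leave 1236. Cell names are running numbers, so shared barcodes could not be counted, but 0 cells had identical counts in different libraries. Doublets were not removed. Scrublet marked 31 of the 221 cells, 7 of them cycling and 8 low-score. The bulk table holds TPM by the authors (STAR, RSEM).

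Members and gene lists were chosen with earlier results of these data known. Ties in the score were broken by cell name. The text names the 6 score genes, the 20 largest and 15 smallest ratios among genes with at least 50 counts, compared genes of the lists, and all compared histone genes. Psrc1, Ube2s and Usp1 were named as the genes behind small bulk counts. Ratios have exact conditional binomial (Clopper-Pearson) 95% intervals, and PCR copies would make them too narrow. Bulk genes with at least 1 TPM in 2 libraries were tested with limma 3.58.1 (R 4.3.3; lmFit and eBayes with trend, 7 group means, 7 residual degrees of freedom), as the edgeR test of the study needs counts. Shared sequence was measured as 31-base words over the transcripts of the genes. The single-cell comparison was also run on simulated data, and the outcome is not given here. Python 3.11.15, numpy 2.4.6, scipy 1.17.1 and pandas 2.3.3 were used.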

Additional observations from a re-analysis of the deposited data

How the results depend on the processing

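The cycling cells' mitosis genes kept a positive median under each of the 14 alternatives tried on cells, counts or scaling, and so did the replication genes. The median log2 ratio of the mitosis genes was 1.52 with cells of more than 250 genes (replication 1.04). Among cells at or below the median total it was 0.88, where only 4 could be compared. With cells thinned to 1000 counts it was 0.74 over only 2, which were in the anaphase-promoting complex list. No gene of the kinase, spindle and kinetochore lists could be compared when thinned. Elsewhere the median of the mitosis genes lay between 3.25 and 4.15. The genes over 2-fold higher and lower numbered 25 and 14 thinned, 217 and 69 with score and values from separate parts of the counts, 1021 and 33 with raw counts per cell, 68 and 58 at or below the median total, 908 and 665 with at least 20 counts, 1672 and 1508 with no minimum, and 795 and 606 at 1.5-fold. The median total of cycling cells was 613.5 with more than 250 genes, 1000 thinned, 4902 in the separate part of the counts, 11649.5 above and 2349 at or below the median total. The histone median turned to 0.97 with 55 in place of 73 cells at each end, and at or below the median total Umps turned to -0.044 and Impact to 0.13. The causes were not tested.

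In bulk, 2065 genes passed against MFP and 1732 against lung CD44low. With a pseudocount of 0.1 they were 3286 and 2666, and leaving out each library they ranged from 1800 to 2157 and from 1147 to 1807, the lowest without lung CD44low replicate 2. Against lung CD44low, Ube2c turned to -0.02 without lung CD44low replicate 1, and without lung CD44high replicate 2 all 5 genes other than Cdk1 turned negative. Over the fits that left out 1 library the log2 differences ranged from -0.20 to 0.90 for Mki67, -0.47 to 2.01 for Top2a, -0.33 to 0.86 for Cenpf, -0.51 to 2.04 for Ccnb1 and -1.18 to 1.84 for Ube2c, the lowest without lung CD44high replicate 2 and the highest without replicate 1. Without replicate 2, Cdk1 passed (-3.55, limma adjusted p 0.00959). Mki67 against MFP lost its call in 10 of 14 fits that left out 1 library. Fitting only the compared groups gave limma adjusted p of 0.0590 to 0.0705 for Ccnb1, Ube2c, Top2a and Cdk1. Same-numbered replicates did not pair, as 3 of 21 correlations of their deviations exceeded 0.1. With the replicate number as a block, 2055 and 1701 genes passed and Mki67 against MFP did not (limma adjusted p 0.0552).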
